A study of Zea mays with 6 samples.

Results

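The genes tasselsheath4 (tsh4, Zm00001d020941), unbranched2 (ub2, Zm00001d031451) and unbranched3 (ub3, Zm00001d052890) of maize were followed in tassel meristems of wild-type plants and of the tassel-less1 (tls1) mutant. They were chosen by their identifiers, as 3 of the 45953 features of the deposited count table, and not by their values. Earlier results of these data were known when they were chosen. All 3 passed the filter on low counts, as did 23349 features in all. The names were paired with the identifiers by the rule that chose the genes, since the RefSeq gene table used here for names matched 0 of the 43789 nuclear identifiers.

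Tassel meristems, which form the male inflorescence, were dissected at a length of 1 mm and their poly-A RNA was sequenced. The WT group (n = 3 libraries) came from the inbred line B73, with the genotype given as WT. The tls1 group (n = 3 libraries) carried the tls1 mutation, with B73 given as the cultivar, and the labels call this mutant boron deficient. Both groups were grown in a greenhouse under 16 hours of light and fertilized at 238 ppm nitrogen and 0.08 ppm boron, and the mutant was sampled before its defects in form appeared. The labels give no allele and do not say how many plants went into a library or whether each library has its own plants, and the p-values below then reflect only how far these libraries vary, a spread that may be technical. The design asks which transcripts differ at that stage. The mutated gene itself was not analysed here, and the labels of the mutant libraries therefore rest on no check of that gene.

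SBP-box genes encode plant transcription factors that bind DNA through a conserved domain with zinc-binding residues. Many of them carry a site for the microRNA miR156, which lowers their activity in young plants and is itself lower in older ones. In maize, tsh4 represses the growth of bracts, the leaves that would otherwise stand under tassel branches and spikelets. Its relatives ub2 and ub3 limit the rate at which lateral primordia are initiated, act partly in place of each other and of tsh4, and affect the number of tassel branches and of kernel rows on the ear. The gene mutated in tls1 encodes a membrane channel that carries boron, and tls1 plants can lack tassels.

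The position of the rows was compared with the names. In the row order of the deposited table, Zm00001d031451 lay between the microRNA genes zma-MIR482 and zma-MIR166i, and Zm00001d052890 lay between zma-MIR164f and zma-MIR399a. The RefSeq gene table of another assembly (Zm-B73-REFERENCE-NAM-5.0) placed ub2 on chromosome 1 and ub3 on chromosome 4, each between the same microRNA genes, when only microRNA genes that the count table also holds were used. Zm00001d020941 lay between zma-MIR156j and zma-MIR169k. The RefSeq table has no entry under the symbol tsh4, and the stretch of chromosome 7 between these microRNA genes held 199 genes, of which 1 had an SBP name. These stretches are long: that around ub2 held 1946 genes of the RefSeq table, 2 of them with an SBP name, and that around ub3 held 1283, also with 2. The order of rows is therefore a coarse check and does not fix the identity of a gene.

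The libraries held between 72498318 and 77619452 counted reads. A count of 3, the limit that a count of 0 allows, corresponded to between 0.0387 and 0.0414 CPM (counts per 1000000 counted reads of the library). The members were far above that: the lowest count was 3734 reads, for tsh4 in tls1 2, or 50.8 CPM with an exact Poisson 95% interval from 49.2 to 52.5 CPM that covers counting error only. Of the tissue markers, only plastid genes could be identified. The photosystem genes psaA and psaB ran up to 2.63 and 2.18 CPM and rbcL, the large subunit of Rubisco, up to 0.0669 CPM, in libraries enriched for poly-A RNA that need not measure plastid RNA. The meristem and leaf markers encoded in the nucleus could not be paired with identifiers, so the tissue was not checked further.

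Of the 6 libraries, ub2 and ub3 were at their highest in tls1 1, and tsh4 was at its lowest in tls1 2 and tls1 3. None of the 3 genes passed edgeR's test for a difference between genotypes, with or without the replicate number as a block. Of all tested genes, 0.00428% passed without the block and 0.694% with it. Only tsh4 was called in any of the fits run, lower in tls1, by DESeq2 with the block and by edgeR with the block but without pair 1. In these 2 fits, 3.24% and 0.56% of the tested genes were called lower. The level of ub2 averaged 1.52 times that of WT, that of ub3 1.23 times and that of tsh4 0.80 times. The tls1 and WT values of each gene overlapped, while 22.5% of all tested genes had no overlap.

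The bract repressor tsh4 stood at 117.2, 75.8 and 98.7 CPM in WT 1, 2 and 3 and at 113.3, 50.8 and 69.5 CPM in tls1 1, 2 and 3. The lowest values were those of tls1 2 and tls1 3, while tls1 1 was above WT 2 and WT 3, so the groups overlapped. Mean levels of tsh4 were 97.2 ± 20.7 CPM for WT and 77.9 ± 32.1 CPM for tls1 (SD, n = 3 each, 2-sided exact permutation p = 0.4). With 3 against 3 libraries this test cannot go below p = 0.1 (exact). In edgeR's quasi-likelihood test the log2 fold change of tsh4, tls1 over WT, was -0.34 ± 0.30 (SE, adjusted p = 0.617), with a 95% interval from -1.07 to 0.39.

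The branching gene ub2 stood at 181.2, 291.1 and 208.9 CPM in WT 1, 2 and 3 and at 462.6, 348.0 and 221.8 CPM in tls1 1, 2 and 3. The values of tls1 1 and tls1 2 lay above all WT values, while that of tls1 3 lay below WT 2. Mean levels of ub2 were 227.1 ± 57.1 CPM for WT and 344.1 ± 120.4 CPM for tls1 (SD, n = 3 each, 2-sided exact permutation p = 0.2). For ub2, edgeR gave a log2 fold change of 0.58 ± 0.29 (SE, adjusted p = 0.373), with a 95% interval from -0.11 to 1.27.

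Its close relative ub3, also known for its effect on kernel row number, stood at 564.0, 660.7 and 577.7 CPM in WT 1, 2 and 3 and at 1012.2, 681.6 and 528.7 CPM in tls1 1, 2 and 3. The tls1 libraries held both the highest and the lowest value of the 6. The WT values were close to each other, with an SD of 8.70% of the mean, against 33.4% in tls1. Mean levels of ub3 were 600.8 ± 52.3 CPM for WT and 740.8 ± 247.1 CPM for tls1 (SD, n = 3 each, 2-sided exact permutation p = 0.6). For ub3, edgeR gave a log2 fold change of 0.28 ± 0.23 (SE, adjusted p = 0.580), with a 95% interval from -0.26 to 0.83. The difference in ub3 rested on tls1 1: without that library edgeR gave -0.0016 ± 0.13 on the log2 scale (SE, adjusted p = 0.999).

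**Figure D1:**
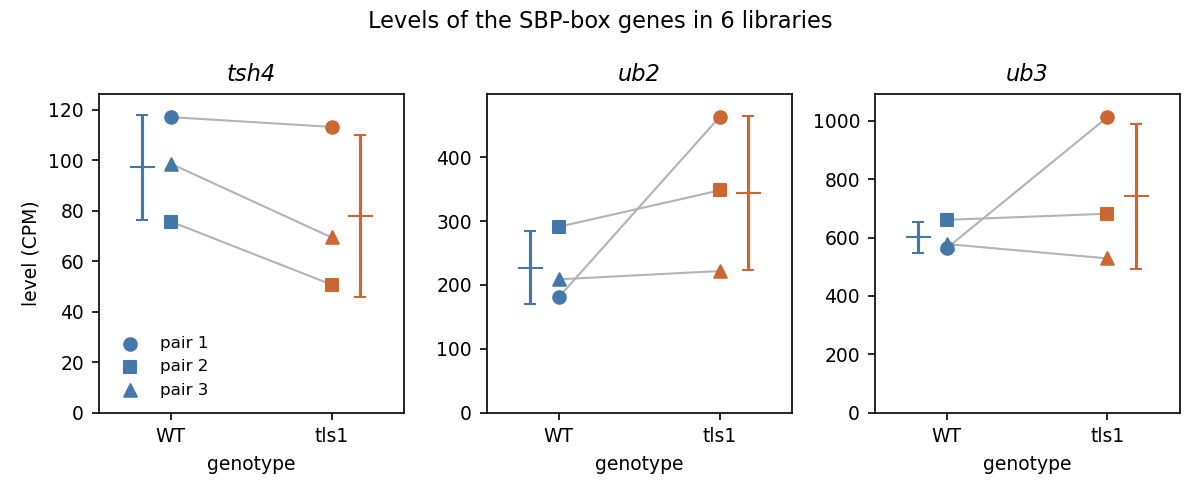
Level of tsh4, ub2 and ub3 in CPM (y axes from 0, a different scale for each gene) in the 3 WT (blue) and 3 tls1 (orange) libraries, with grey lines joining libraries of the same replicate number and bars giving the mean ± SD. The point for tls1 1 stands at 462.6 CPM for ub2 and 1012.2 CPM for ub3, above the other 5 libraries, and the WT and tls1 points overlap for each gene.

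The calls of the members were set beside those of all tested genes. With 3 members, a count of 0 could hardly stand out against any of these shares. edgeR called 0 of the 3 members, and over all 23349 tested genes it called 1 gene higher in tls1, or 0.00428%, and 0 lower. At an unadjusted p under 0.05 it had 0 of the 3 members and 16.5% of all tested genes. Without a replicate block, DESeq2 also called 0 of the 3 members, against 5% of its tested genes. It had 1 member, ub2, at an unadjusted p under 0.05, with an adjusted p of 0.200, and 12.6% of all genes with a DESeq2 p were under that unadjusted threshold. limma-voom called 0 of the 3 members, against 0.00857% of its tested genes. The groups did not overlap in 0 of the 3 members, against 22.5% of all tested genes. The intervals above leave room for changes in either direction, so they do not show that the levels of these genes were alike in both genotypes.

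Libraries of both genotypes carry the replicate numbers 1 to 3, and libraries of the same number deviated together, so the change within each same-numbered pair was also taken. The pairing was less clear for number 1 than for 2 and 3, with an r of 0.378 between the deviations of its libraries. By the mean chi-square per gene between libraries, tls1 1 was closer to WT 2 (71.7) than to WT 1 (127.2). Changes in pair 1, and the fits with the block that include it, depend on pairing WT 1 with tls1 1. Within pairs, tsh4 was lower in tls1 each time, at 0.97 times the WT level in pair 1, 0.67 times in pair 2 and 0.70 times in pair 3. As log2 ratios of CPM these changes of tsh4 were -0.05, -0.58 and -0.51. Pairs 2 and 3 gave similar values, and in pair 1 the libraries differed little. The gene ub2 was higher in tls1 in each pair, 2.55-fold in pair 1, 1.20-fold in pair 2 and 1.06-fold in pair 3, or log2 ratios of 1.35, 0.26 and 0.09. For ub3 the pairs did not share a direction: the level in tls1 was 1.79 times that of WT in pair 1, 1.03 times in pair 2 and 0.92 times in pair 3, or log2 ratios of 0.84, 0.04 and -0.13. Over the 3 pairs the mean log2 ratio was -0.38 ± 0.29 for tsh4, 0.57 ± 0.69 for ub2 and 0.25 ± 0.52 for ub3 (SD, n = 3 pairs). For ub2 and ub3 the SD exceeded the mean.

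One direction in all 3 pairs was common in these libraries. Of all tested genes, 21.3% were lower in tls1 within all 3 pairs, as tsh4 was, and 24.6% were higher within all 3, as ub2 was. Of the 9 single changes, 5 were of a common size among all tested genes. On the scale of log2(CPM + 0.5), a larger change, in either direction, was found in 88.0% of all tested genes for tsh4 in pair 1, in 25.3% and 67.5% for ub2 in pairs 2 and 3, and in 81.3% and 54.5% for ub3 in pairs 2 and 3. The other 4 were less common. In pair 1, 3.33% of all tested genes had a larger change than ub2 and 10.6% a larger one than ub3. In pairs 2 and 3, larger changes than that of tsh4 were found in 6.54% and 9.63% of all tested genes. Among the 5767 tested genes with a mean of at least 50 CPM, where low counts play little part, the shares for these 4 changes were 0.971% for ub2 and 3.33% for ub3 in pair 1, and 1.79% and 2.58% for tsh4 in pairs 2 and 3. For ub2 in pair 2, counted as common above, the share in this set was 10.5%.

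**Figure D2:**
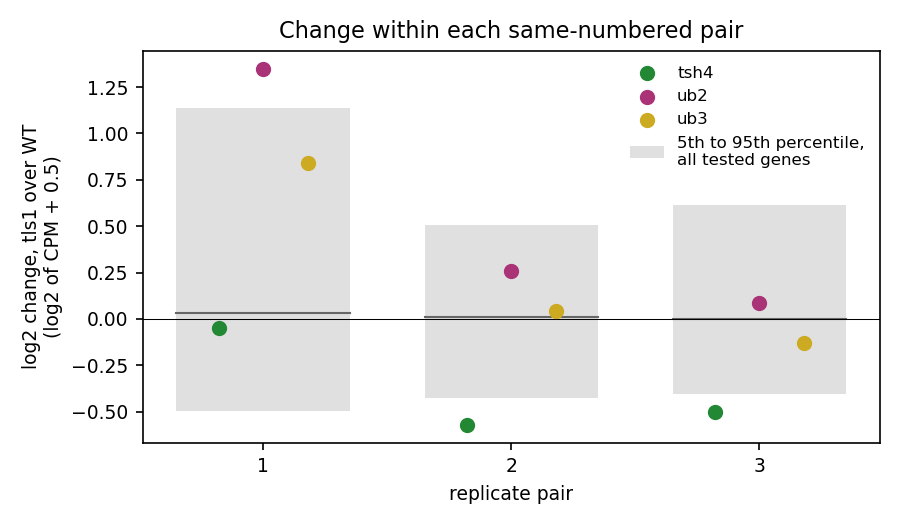
Change from WT to tls1 within each same-numbered pair, as the difference of log2(CPM + 0.5) (y axis), for tsh4, ub2 and ub3 (coloured points), with grey boxes from the 5th to the 95th percentile of all 23349 tested genes and a line at their median. The gene ub2 lies above the box in pair 1, tsh4 lies below the box in pairs 2 and 3, and every point of ub3 lies inside.

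With the replicate number as a block in the edgeR fit, the log2 fold change of tsh4 was -0.40 ± 0.11 (SE, adjusted p = 0.157), with a 95% interval from -0.67 to -0.12. The SE of tsh4 was 0.30 without the block. That of ub2 moved in edgeR from 0.29 to 0.25 and that of ub3 from 0.23 to 0.19. In this fit edgeR again called 0 of the 3 members, against 0.694% of all tested genes, 115 of them higher and 47 lower in tls1. At an unadjusted p under 0.05 it had tsh4 lower, as were 10.7% of all tested genes, and neither ub2 nor ub3. The call on tsh4 depended on the tool and on pair 1. DESeq2 with the block called tsh4 lower (log2 fold change -0.39 ± 0.13 SE, adjusted p = 0.0313), where 3.24% of its tested genes were called lower. In DESeq2 the block narrowed the SE of tsh4 from 0.28 to 0.13 but widened that of ub2 from 0.26 to 0.42. The SE of ub3 also widened in DESeq2, from 0.21 to 0.30. Without pair 1, the edgeR fit with the block also called tsh4 lower, at -0.55 ± 0.06 on the log2 scale (SE, adjusted p = 0.0206) from 2 pairs, where 0.56% of all tested genes were called lower. In that fit ub2 stood at 0.17 ± 0.07 (log2 fold change, SE, edgeR, adjusted p = 0.303) and ub3 at -0.05 ± 0.07 (adjusted p = 0.804). Pair 1, left out there, was the pair in which tsh4 changed least. The same edgeR fit without pair 2 or without pair 3 did not call tsh4. It gave log2 fold changes of -0.29 ± 0.13 and -0.33 ± 0.14 for tsh4 (SE, adjusted p = 0.313 and 0.428).

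**Figure D3:**
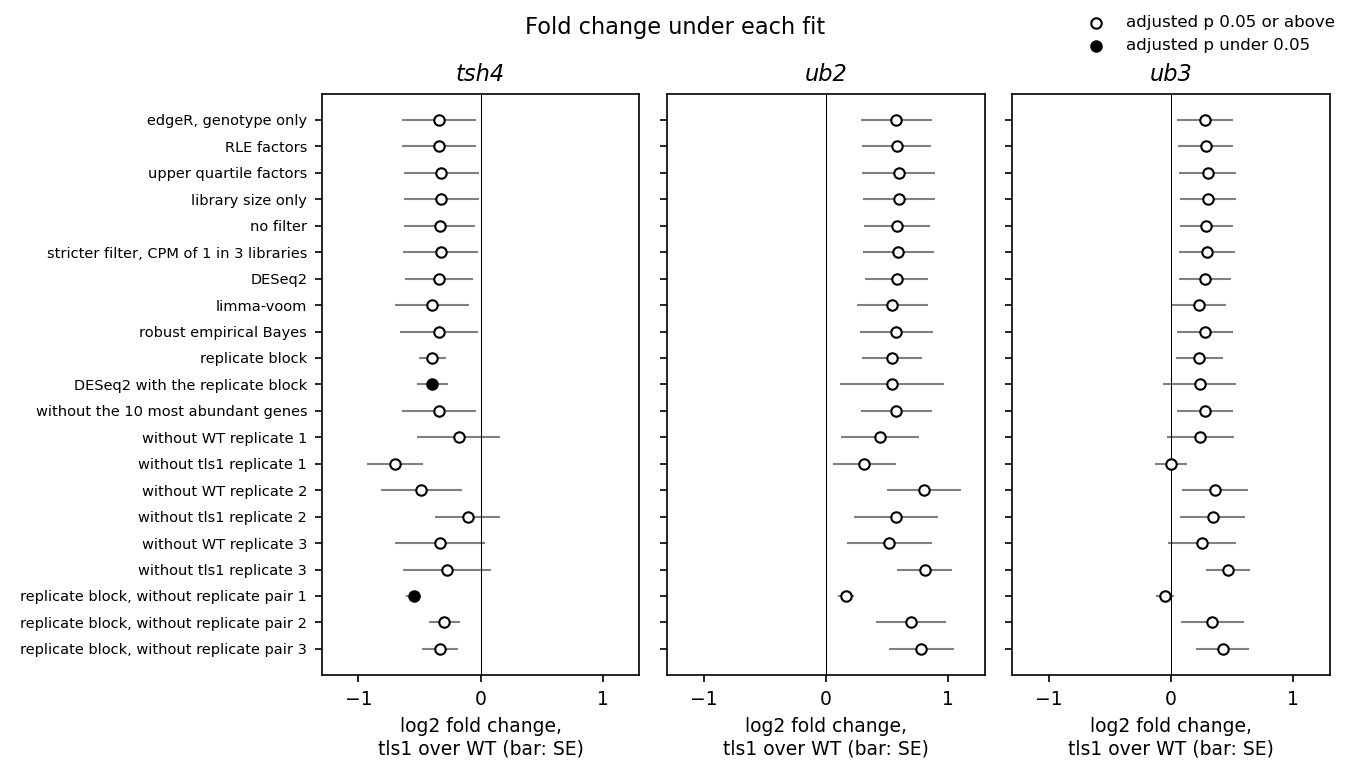
Log2 fold change, tls1 over WT, of tsh4, ub2 and ub3 (x axes, points with SE bars) under edgeR with genotype only and under 20 alternatives (rows). Filled points, with an adjusted p under 0.05, appear for tsh4 in 2 fits, DESeq2 with the replicate block and edgeR with the block but without pair 1, and ub3 falls to about 0 or just below it in both fits without tls1 1.

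The library tls1 1, in which ub2 and ub3 were highest, also stood apart elsewhere. It was the highest of the 6 libraries in 25.3% of all tested genes, while in the other libraries this share ran from 9.10% to 18.2%. It exceeded all others by at least 0.4 on the log2 scale, as it did for ub2 and ub3, in 4.23% of all tested genes, against 0.36% to 1.07% for the other libraries. This gap was chosen after the values were seen. WT 1, the other library of pair 1, was most often the lowest, in 21.0% of all tested genes against 20.3% for tls1 1. It was also the lowest library for ub2. The mitochondrial share of the reads was lowest in tls1 1, at 0.135%, and highest in WT 1, at 0.319%, close to the 0.316% of tls1 2. Whether these features of tls1 1 and WT 1 bear on ub2 and ub3 was not tested. In dissected tissue, fewer cells that express a gene and less RNA per cell cannot be told apart.

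The 3 genes did not vary together across libraries in the same way. Over the 6 libraries, log2(CPM + 0.5) of ub2 and ub3 were correlated with a Pearson's r of 0.915 (exact permutation p = 0.0194, or 0.0583 adjusted over 3 relations) and a Spearman's rho of 0.829 (exact permutation p = 0.0583, or 0.175 adjusted), and r was 0.897 without WT 1 and tls1 1, the libraries farthest from the median of ub2. For tsh4 and ub2, r was -0.194 (exact permutation p = 0.706, or 0.772 adjusted) while rho was -0.371 (exact permutation p = 0.497, or 0.746 adjusted), and r turned to 0.577 without tls1 2 and WT 1 but to -0.890 without tls1 1. For tsh4 and ub3, r was 0.211 (exact permutation p = 0.772, or 0.772 adjusted) while rho was -0.029 (exact permutation p = 1.0, or 1.0 adjusted), and r was 0.741 without tls1 2 and WT 1 but -0.550 without tls1 1. The relations of tsh4 with ub2 and ub3 thus changed sign with the libraries left out. That of ub2 and ub3 had r = 0.863 without tls1 1. Reads of ub2 and ub3 may not be fully separated, and whether this bears on their correlation or read ratio was not tested. None of the 3 relations passed after adjustment, and the permutations treat the libraries as exchangeable although same-numbered libraries deviated together.

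Ratios of reads between members of the same library do not depend on how the library is scaled. Their absolute size depends on the lengths of the transcripts, which were not available, so only their change between libraries is described and the levels of the 3 genes were not ranked against each other. For every 100 ub2 reads there were 64.6, 26.0 and 47.3 tsh4 reads in WT 1, 2 and 3, and 24.5, 14.6 and 31.3 in tls1 1, 2 and 3. The ratio was lower in tls1 in each pair, by 2.64-fold in pair 1, 1.78-fold in pair 2 and 1.51-fold in pair 3. The groups still overlapped, since WT 2 lay within the tls1 range.

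Relative to ub3, tsh4 was also lower in tls1 within each pair, with 20.8, 11.5 and 17.1 tsh4 reads per 100 ub3 reads in WT 1, 2 and 3 and 11.2, 7.46 and 13.1 in tls1 1, 2 and 3. Again only WT 2 lay within the tls1 range. There were 32.1, 44.1 and 36.2 ub2 reads per 100 ub3 reads in WT 1, 2 and 3, and 45.7, 51.1 and 42.0 in tls1 1, 2 and 3. This ratio was higher in tls1 in each pair, by 1.42-fold in pair 1 and 1.16-fold in pairs 2 and 3, and WT 2 was above tls1 3. The ratios combine values already given for each gene and were not tested. Summed over the 3 genes, the level was 862.4, 1027.5 and 885.3 CPM in WT 1, 2 and 3 and 1588.0, 1080.4 and 820.0 CPM in tls1 1, 2 and 3. The share of tsh4 in this sum lay between 7.37% and 13.6% in WT libraries and between 4.70% and 8.48% in tls1 libraries. Reads of ub3 made up between 63.1% and 65.4% of the sum, so it mostly follows ub3. The sum and the shares also depend on the lengths of the transcripts.

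**Figure D4:**
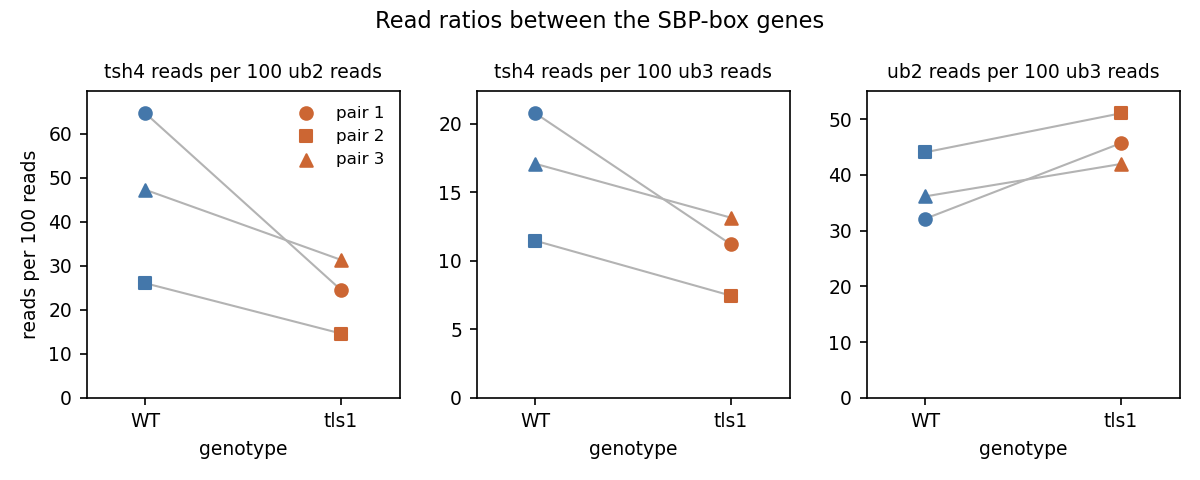
Reads of one gene per 100 reads of another in the same library (y axes from 0), for tsh4 to ub2, tsh4 to ub3 and ub2 to ub3, in WT (blue) and tls1 (orange), with grey lines joining same-numbered libraries. Every line falls in the panels for tsh4 to ub2 and tsh4 to ub3, and every line rises in that for ub2 to ub3.

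The microRNA genes that could act on these transcripts gave no value. The table held 11 MIR156 genes and 1 MIR529 gene, whose mature products in plants pair with SBP-box transcripts, and each was listed at 0 reads in all 6 libraries. So were all 154 microRNA genes, so these zeros say nothing of the mature microRNAs, which poly-A libraries do not capture. The RefSeq table named 25 genes as SBP-box genes or by a matching SBP name, and 10 genes for the 13 symbols of a list of bract and branching genes. None of these could be paired with an identifier of the table, so the other SBP-box genes and that list were not analysed here.

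Genes next to the members in row order had median fold changes near 0. Within 10 rows on either side of tsh4, 16 genes were tested, 9 of them with a negative log2 fold change, and their median was -0.0036. Their values ran from -1.08 to 0.40, and 4 of the 16 lay below the -0.34 of tsh4. Around ub2, 10 genes were tested, with a median of -0.02 and values from -0.63 to 0.36. None lay above the 0.58 of ub2, and 1 of the 10, at -0.63, was larger in size. Around ub3, 16 genes were tested, with a median of 0.04 and 7 of 16 negative. Their values ran from -0.28 to 0.82, and 4 of the 16 lay above the 0.28 of ub3. In pair 1 alone the median change of these neighbours, on the scale of log2(CPM + 0.5), was -0.04 around ub2 and 0.09 around ub3. The median over all tested genes was 0.03 in that pair. The genes ub2 and ub3 themselves had log2 ratios of 1.35 and 0.84, but a median over several genes is not a like measure for a single gene. edgeR called 0 of these neighbours with or without the block.

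**Figure D5:**
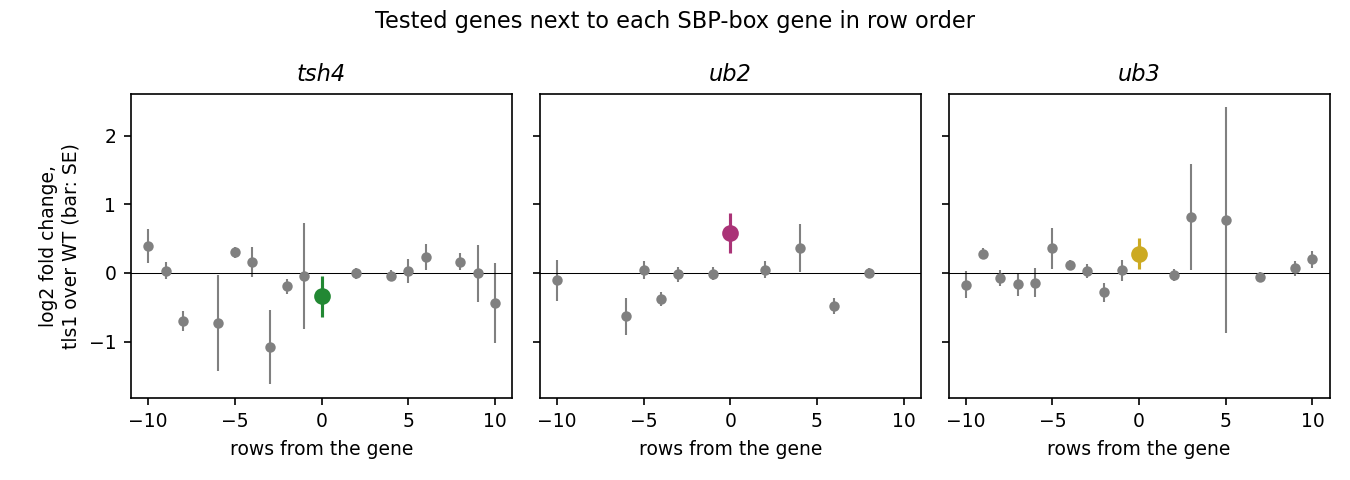
Log2 fold change, tls1 over WT (y axis, edgeR with genotype only, bars give the SE), of the tested genes within 10 rows of tsh4, ub2 and ub3 in the table (x axis, rows from the gene; coloured point, the gene itself). The neighbours scatter around 0, with medians of -0.0036, -0.02 and 0.04. Beyond the gene itself in its own direction lie 4 neighbours of tsh4, 0 of ub2 and 4 of ub3.

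The tested gene whose log2(CPM + 0.5) followed each member most closely over the 6 libraries was Zm00001d026592 for tsh4 (r = 0.983), Zm00001d018363 for ub2 (r = 0.999) and Zm00001d015917 for ub3 (r = 0.999). The gene most like ub2, Zm00001d018363, had 24.7, 43.6 and 30.0 CPM in WT 1, 2 and 3 and 72.7, 54.9 and 31.1 CPM in tls1 1, 2 and 3, and so was highest in tls1 1 as ub2 was. With 6 libraries and 23348 genes compared, values this close to 1 carry little weight. The number of genes with an r over 0.95 differed between the members: 805 for ub2 (3.45% of those compared), 274 for ub3 (1.17%) and 25 for tsh4 (0.107%). This number was not computed for other tested genes, so the difference cannot be read as a trait of the members. The library tls1 1, where ub2 and ub3 peaked, was the highest in 25.3% of all tested genes. Whether this bears on these numbers was not tested.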

How the data were processed

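Poly-A RNA of 3 WT and 3 tls1 libraries was sequenced as paired reads, per the labels' protocols. Per the submitters' processing notes, the tools were cutadapt, which trims adapters, and STAR, an aligner. How reads were counted, with or without strand, and on which build is not given in the sources used here. Reads of overlapping genes and of close copies, such as ub2 and ub3, may therefore not be fully separated. The authors deposited raw read counts, not normalized.

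All features were fitted with edgeR 4.0.16 in R 4.3.3 (quasi-likelihood test, TMM, filterByExpr, genotype only) with Benjamini-Hochberg adjustment over 23349 genes and calls at an adjusted p under 0.05. Alternatives included DESeq2 1.42.0, limma 3.58.1 (voom) and a replicate block. The 95% intervals of fold changes use the SE implied by the F statistic. Permutation tests used scipy 1.17.1. On simulated counts for this comparison, with 100 genes changed by a log2 of 1 and 100 by a log2 of 2, 55.6% and 77.1% were called, with 7 false calls. These changes were larger than the members' estimates, and the simulated libraries were drawn independently of each other. The rates therefore do not carry over to the members.

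Deviations from the genotype means correlated between same-numbered libraries, at 0.378, 0.580 and 0.700 for numbers 1, 2 and 3, so the numbers were taken to pair the libraries, from the data alone. No 2 libraries agreed within sampling noise (mean chi-square per gene at least 43.9). This value was 43.9 within pair 2 and 46.3 within pair 3, but 127.2 between WT 1 and tls1 1. By it, tls1 1 was closer to WT 2 (71.7), and WT 1 was closer to tls1 2 (101.5) and tls1 3 (85.0). The chi-square thus goes against pair 1, which rests on the r of 0.378 and is the least supported.

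The members, lists and tests were chosen with earlier results of these data known. The rule for named genes took the 3 members, named SBP-box, microRNA and branching genes where identifiers could be paired, and the gene most like each member. No sequence is printed, as none was used here.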

Additional observations from a re-analysis of the deposited data

How the results depend on the processing

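Over 20 alternatives the log2 fold change of tsh4 stayed negative, from -0.70 to -0.11, and that of ub2 positive, from 0.17 to 0.81. Leaving out 1 library gave from -0.70 to -0.11 for tsh4, from 0.31 to 0.81 for ub2 and from -0.0016 to 0.47 for ub3. The log2 fold change of ub3 changed sign without tls1 replicate 1 (-0.0016) and with the replicate block without pair 1 (-0.049). That of tsh4 passed the threshold with DESeq2 and the replicate block (-0.39) and with the block without pair 1 (-0.55), so 1 member was called in each of these 2 fits and 0 in the other 18 and in edgeR with genotype only. In edgeR the replicate block over all pairs changed no call of a member (log2 fold change -0.40 for tsh4, 0.54 for ub2 and 0.23 for ub3). Over all genes, 1 was called with genotype only, 13 with no filter, 1198 with DESeq2, 2 with limma-voom, 162 with the replicate block, 1640 with DESeq2 and the block, 433, 159 and 52 with the block without pair 1, 2 and 3, and from 0 to 9 without 1 library. Fits without a library have fewer samples, and otherwise the cause was not tested. Differences of mean CPM kept their sign without each library, at -37.0 to -5.80 for tsh4, 57.8 to 178.2 for ub2 and 4.33 to 246.1 for ub3, and TMM scaling, also added after seeing the data, changed no sign within a pair. Levels per length were not run, as no transcript length was available. Counting error was at most 1.64% of a member's value in a library (ub2 and ub3 lower), so the spread between libraries, not depth, limited the tests.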
